A study of Mus musculus with 11 samples.

Results

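The 10 genes described here encode apolipoproteins and carrier proteins that are secreted by the endoderm of the yolk sac, and a lipid loading protein. They are Apoe, Apoc1, Apob, Apoa1 and Apom, the lipid transfer protein gene Mttp, and the carrier genes Ttr, Rbp4, Afp and Trf. They were chosen by name, with earlier results of these data known. All 10 were found by symbol among the 48952 genes of the bulk table and among the 32285 genes of the single-cell tables. In bulk, 9 of the 10 passed the filter on low counts that left 14185 genes for testing, and Trf did not.

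The samples were cultures of naive extra-embryonic endoderm (nEnd), mouse stem cells in a primitive endoderm-like state that were kept on fibroblast feeder cells in a medium with Activin A, the GSK3 inhibitor CHIR99021 and LIF (RACL). For bulk RNA-seq, nEnd of an untreated reporter line in which mCherry is fused to OCT4 were stained for the receptor PDGFRA and sorted into cells with PDGFRA and no reporter (Pdgfra+), cells with both (DP) and cells with the reporter alone (Oct4+), with 3 libraries each. For single-cell RNA-seq, cells of a homozygous Oct4 loss-of-function line (gene Pou5f1) were sorted for PDGFRA and then cultured after a pulse of 4-hydroxytamoxifen, which induces the loss (+4OHT), or without it (-4OHT), with 1 droplet library per condition. Each line was a single line, and the labels do not say whether the bulk libraries of a group came from separate cultures, so p-values measure the spread between these libraries.

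The visceral endoderm and, later, the yolk sac feed the embryo before the placenta and the fetal liver take over. Their cells load lipid onto ApoB with the help of Mttp, release the particle together with exchangeable apolipoproteins such as ApoE, and secrete carriers that bring retinol (Rbp4), thyroid hormone (Ttr) and iron (Trf) to the embryo. Afp, the fetal counterpart of albumin, and several apolipoproteins serve as classical marks of visceral endoderm, whereas parietal endoderm lays down basement membrane and is known for far less of this secretory program. The comparisons asked how the members differ between the endoderm-like and epiblast-like ends of nEnd, in the DP cells that carry both markers, and after removal of Oct4.

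In the GRCm38 build with GENCODE M21 genes, Apoe (chr7:19696109-19699188) and Apoc1 (chr7:19689481-19692660) lie next to each other on the minus strand, and Apoa1 (chr9:46228580-46230466) and Trf (chr9:103204001-103230444) lie far apart on chromosome 9. Apob is at chr12:7977648-8016835, Apom at chr17:35128997-35132050, Afp at chr5:90490737-90508907, Rbp4 at chr19:38116629-38125281 and Mttp at chr3:138089854-138144968. Mttp overlaps Trmt10a and an antisense gene on the opposite strand, and Afp overlaps an antisense gene. Since the use of strand in the bulk counting is not stated, the counts of Mttp and Afp could include reads of these partners. Trf overlaps the protein-coding gene Gm20425 on the same strand, and how shared reads were counted is not stated.

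RefSeq promoter windows (GRCm38.p6, 250 bases before to 50 after each start site) were given for 7 of the 10 members, as 10 windows. Exact matches to 6 letter strings were searched on both strands. The FOXA string TGTTTAC was found in 3.65% of all 32851 windows of the table. The HNF1 string GTTAAT was found in 7.1% of these windows. The TATA box string TATAAA was found in 13.6%. Of the strings with no match in any member window, the GATA factor string, read as AGATAA, was found in 11.2%. An HNF4 string, read as AGGTCAAAG, was found in 0.426% of windows. The other HNF4 string, read as CAAAGTCCA, was found in 0.475%. Of the 10 windows 6 held a match, and only windows with a match are shown, with matches in capitals. Mttp, also lower in Oct4+ than in Pdgfra+ cells, had a window without a match. Apoe is shown by the most downstream of its 3 windows. The windows below belong to Apob, Afp, Rbp4 and the most abundant member, Apoe, all of them lower in Oct4+ than in Pdgfra+ cells. They are Apob (chr12:7977427-7977726, plus strand), Afp (chr5:90490464-90490763, plus strand), Rbp4 (chr19:38124762-38125061, minus strand) and Apoe (chr7:19698349-19698648, minus strand).
Apob: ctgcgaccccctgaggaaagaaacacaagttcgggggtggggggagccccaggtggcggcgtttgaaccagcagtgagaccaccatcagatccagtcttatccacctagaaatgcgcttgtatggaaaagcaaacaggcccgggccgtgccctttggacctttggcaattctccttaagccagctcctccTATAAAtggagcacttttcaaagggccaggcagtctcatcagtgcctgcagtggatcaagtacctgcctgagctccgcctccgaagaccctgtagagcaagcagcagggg
Afp: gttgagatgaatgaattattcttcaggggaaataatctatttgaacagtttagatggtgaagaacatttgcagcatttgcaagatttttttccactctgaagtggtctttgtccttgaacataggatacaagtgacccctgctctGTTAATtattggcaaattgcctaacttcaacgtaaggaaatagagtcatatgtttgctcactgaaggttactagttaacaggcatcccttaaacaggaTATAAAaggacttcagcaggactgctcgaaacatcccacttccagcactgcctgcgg
Rbp4: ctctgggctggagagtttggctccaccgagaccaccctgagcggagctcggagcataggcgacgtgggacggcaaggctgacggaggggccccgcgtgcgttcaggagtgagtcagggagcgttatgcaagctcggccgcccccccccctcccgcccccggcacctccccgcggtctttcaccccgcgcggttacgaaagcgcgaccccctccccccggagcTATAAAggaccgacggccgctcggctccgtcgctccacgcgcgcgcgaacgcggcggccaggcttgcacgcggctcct
Apoe: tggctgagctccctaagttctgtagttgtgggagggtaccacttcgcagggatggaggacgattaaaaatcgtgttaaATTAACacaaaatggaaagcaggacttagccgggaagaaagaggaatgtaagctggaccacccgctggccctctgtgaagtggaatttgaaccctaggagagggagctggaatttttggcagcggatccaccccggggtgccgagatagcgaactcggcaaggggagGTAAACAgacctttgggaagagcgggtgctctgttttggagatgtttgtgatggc

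TATAAA was found in the Apob, Afp and Rbp4 windows shown, starting at bases -60, -7 and -28 from the start site. GTTAAT was found in the Afp window at -105 and, on the opposite strand, in the Apoe window at -172, and a match to TGTTTAC on the opposite strand began at -5 in the same Apoe window. The single Apoa1, Apom and Mttp windows and the most upstream Apoe window held none of the 6 letter strings. Of the windows not shown, the other Rbp4 window had a match to TGTTTAC on the opposite strand at -241, and the remaining Apoe window had TATAAA matches at -96 and, on the opposite strand, at -100. These matches describe the printed letters only.

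The libraries held 8019631 to 11642571 counted reads in bulk, and 107645982 and 95420040 unique molecular identifiers (UMIs) in the -4OHT and +4OHT libraries. Pou5f1 followed the sort, at 17.4 ± 8.98, 229 ± 90.0 and 979 ± 141 CPM (reads scaled to a library total of 1000000; mean ± SD, n = 3) in Pdgfra+, DP and Oct4+ libraries, and Pdgfra was at 727 ± 219, 588 ± 153 and 7.41 ± 4.06 CPM. In the single-cell libraries Pou5f1 was at 39.7 CPM of UMIs without 4OHT and 2.74 CPM with it, and whether the counted 3′ tags lie inside the deleted part was not analysed here. The summed level of 14 endoderm markers was 278 to 307 CPM in Oct4+ libraries 1 and 3 and 707 CPM in Oct4+ library 2, against 36790 to 69370 CPM in the DP and Pdgfra+ libraries. In bulk, fewer cells of a type and less RNA per cell cannot be told apart.

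Apoe, whose product is a ligand of the LDL receptor family, was the most abundant member on the per-length scale in all 3 sorted populations. It was at 316 ± 64.6, 775 ± 128 and 155 ± 2.09 RPKM (CPM per kilobase of the merged exons of a gene, mean ± SD, n = 3) in Pdgfra+, DP and Oct4+ cells. It ranked 91, 24 and 213 from the top among 13846 genes with a known length. Next in order by RPKM came Ttr (29.7) and Mttp (14.1) in Pdgfra+ cells, Apoc1 (50.5) and Ttr (23.7) in DP cells, and Apoc1 (16.9) and Mttp (2.99) in Oct4+ cells. Afp and Trf closed the order in both PDGFRA-positive groups, with Afp at 1.16 RPKM in Pdgfra+ and 0.978 RPKM in DP cells and Trf without a read. In Oct4+ cells the lowest were Trf, Apob and Afp, at 0.349, 0.204 and 0.0381 RPKM. Apoa1, Apom and Apob lay between 2.18 and 2.35 RPKM in Pdgfra+ cells, closer together than their SDs of 0.428 to 0.878. In DP cells Rbp4 and Apob, at 4.79 and 4.05 RPKM, were likewise closer than their SDs of 3.47 and 1.92, and Apom was at 7.11 RPKM with an SD of 6.87.

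Between the PDGFRA-positive populations, Apoe and its chromosomal neighbour Apoc1 were higher in DP than in Pdgfra+ cells, and no other tested member passed the threshold. This was 2 of 9 members at a Benjamini-Hochberg adjusted p below 0.05 in edgeR's quasi-likelihood test, where 6.87% of all genes tested were called, 4.61% higher and 2.26% lower in DP. The median log2 fold change of the 9 members was 0.40, and that of all genes 0.02. The epiblast markers moved with this comparison: 12 of the 13 were higher in DP, with summed levels of 1027 to 1241 CPM against 418 to 722 CPM in Pdgfra+, and their part in the member values was not tested. In the Oct4+ libraries those markers summed to 3676 to 5262 CPM.

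Apoe stood at 826, 646 and 554 CPM in the 3 Pdgfra+ libraries, at 1403, 1947 and 1620 CPM in DP, and at 331, 337 and 328 CPM in Oct4+. No library of a group overlapped with another group. The difference between DP and Pdgfra+ was 2.45-fold (log2 fold change 1.29, SE 0.17, edgeR adjusted p = 0.0101), and DP exceeded Oct4+ by 4.99-fold (2.32, SE 0.18, adjusted p = 7.72e-06). Oct4+ cells were 2.04-fold lower than Pdgfra+ cells (log2 fold change -1.03, SE 0.17, adjusted p = 0.000541). Its order was DP, Pdgfra+ and Oct4+, with each step past the threshold.

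Apoc1, a small exchangeable apolipoprotein of the same gene cluster, had a different order. It stood at 6.70, 3.68 and 3.96 CPM in Pdgfra+, at 21.4, 42.7 and 48.6 CPM in DP, and at 8.74, 8.26 and 20.8 CPM in Oct4+ libraries. The DP libraries lay above all others, the lowest of them close to the highest Oct4+ library, and every Oct4+ library lay above every Pdgfra+ library. DP exceeded Pdgfra+ by 7.89-fold (log2 fold change 2.98, SE 0.46, edgeR adjusted p = 0.0125), and it was the only member also past the study's further limit of an absolute log2 fold change above 1.5, as were 3.89% of all genes. Without Pdgfra+ replicate 3, a fit in which 61 rather than 974 genes were called over all genes, its adjusted p in edgeR was 0.0639 with a log2 fold change of 2.87. DP also exceeded Oct4+ by 3.00-fold (adjusted p = 0.00996). Oct4+ was 2.63-fold above Pdgfra+ (log2 fold change 1.40, SE 0.45, adjusted p = 0.0201), the only member called higher there. That call was lost without Oct4+ replicate 3 (log2 fold change 0.83, adjusted p = 0.0891), without Pdgfra+ replicate 2 (1.21, adjusted p = 0.0709) and without Pdgfra+ replicate 3 (1.25, adjusted p = 0.0679).

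**Figure D1:**
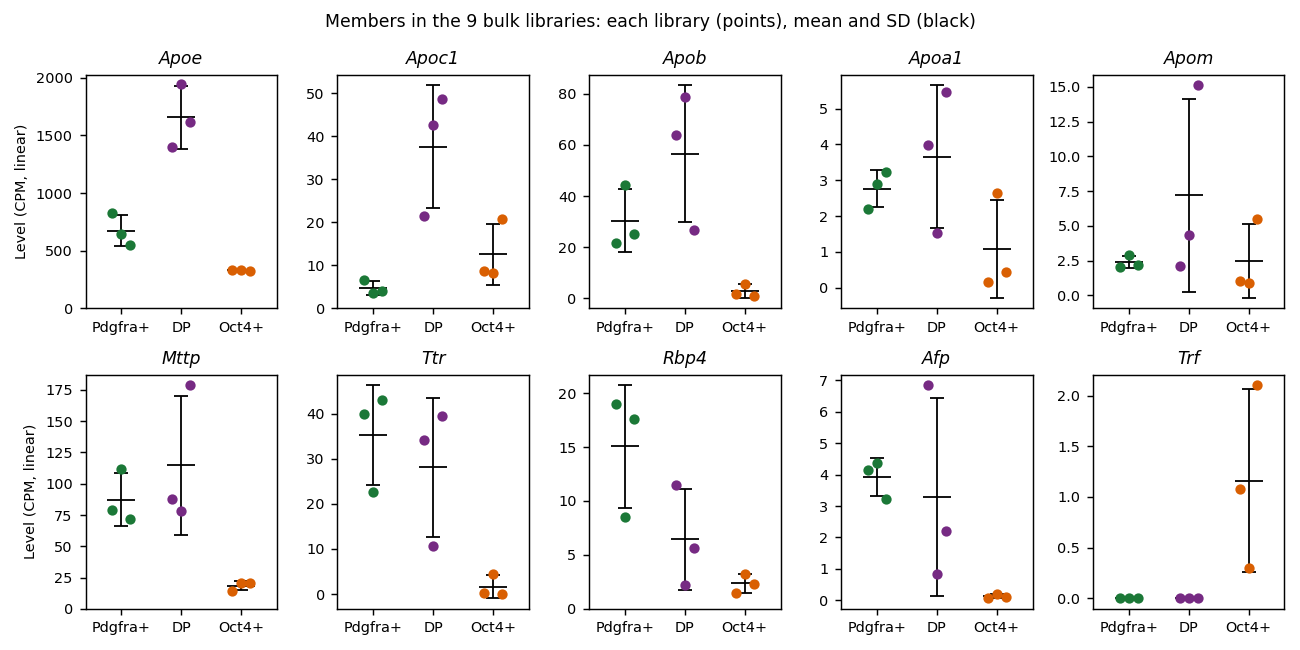
Level of each of the 10 genes in the 9 bulk libraries in CPM on linear axes that differ between panels, with points for single libraries, black bars for the mean and SD (n = 3), and groups sorted as Pdgfra+, DP and Oct4+. Apoe and Apoc1 are highest in all 3 DP libraries, Apob, Mttp, Ttr and Afp are low in Oct4+, and Trf has reads in the Oct4+ libraries only.

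Apob is the structural protein of very low density lipoproteins, and Mttp the transfer protein that loads it with lipid. Neither was called between the PDGFRA-positive groups, and both were lower in Oct4+ cells. Apob was at 21.6, 44.3 and 25.2 CPM in Pdgfra+, at 63.9, 78.8 and 26.7 CPM in DP, and at 1.86, 5.80 and 0.885 CPM in Oct4+ libraries. DP and Pdgfra+ overlapped (log2 fold change 0.89, SE 0.54, edgeR adjusted p = 0.322), and both lay above all Oct4+ libraries. DP exceeded Oct4+ by 19.8-fold (log2 fold change 4.30, SE 0.64, adjusted p = 0.000321), and Oct4+ was 10.6-fold below Pdgfra+ (-3.41, SE 0.62, adjusted p = 0.000883).

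Mttp was at 79.2, 111 and 71.5 CPM in Pdgfra+, at 87.9, 78.1 and 179 CPM in DP, and at 14.5, 20.9 and 20.4 CPM in Oct4+. The 2 PDGFRA-positive groups overlapped (log2 fold change 0.40, SE 0.31, edgeR adjusted p = 0.452), DP replicate 3 being the highest library. Mttp in DP exceeded Oct4+ by 6.21-fold (adjusted p = 0.000124), and Oct4+ lay 4.72-fold below Pdgfra+ (adjusted p = 0.000231).

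The carriers of thyroid hormone, retinol and fetal plasma ligands showed the same low level in Oct4+ cells, with a wide spread among DP libraries. Ttr, which carries thyroxine and holds retinol-binding protein in the blood, was at 39.9, 22.6 and 43.0 CPM in Pdgfra+, at 34.2, 10.6 and 39.4 CPM in DP, and at 0.232, 4.52 and 0.111 CPM in Oct4+. DP and Pdgfra+ overlapped (log2 fold change -0.33, SE 0.76, edgeR adjusted p = 0.818). Oct4+ replicate 2 was the highest Oct4+ library for Ttr, Apob, Apoa1, Rbp4, Afp and Mttp, and it was also the one with the higher endoderm marker sum. Ttr was 17.4-fold higher in DP than in Oct4+ (adjusted p = 0.00362) and 21.8-fold lower in Oct4+ than in Pdgfra+ (adjusted p = 0.00199).

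Rbp4, the plasma carrier of retinol, was at 19.0, 8.55 and 17.6 CPM in Pdgfra+, at 11.4, 2.24 and 5.61 CPM in DP, and at 1.47, 3.25 and 2.32 CPM in Oct4+. It was the member with the lowest DP to Pdgfra+ ratio (log2 fold change -1.23, SE 0.54, edgeR adjusted p = 0.192). The numbered libraries of DP and Pdgfra+ deviated together, and with the replicate block the adjusted p for Rbp4 was 0.159 over all 9 libraries (log2 fold change -1.30) and 0.0261 over the 6 libraries compared (-1.36), which is past the threshold. In that narrower fit 2536 of 12541 genes were called. Rbp4 was 6.42-fold lower in Oct4+ than in Pdgfra+ (log2 fold change -2.68, SE 0.58, adjusted p = 0.00247). Between DP and Oct4+ the groups overlapped and the log2 fold change of 1.46 (SE 0.58) had an adjusted p of 0.0526, with 0.031 in DESeq2.

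Afp was a minor transcript, with 34, 44 and 31 reads in the Pdgfra+ libraries, 55, 7 and 17 in DP, and 1, 2 and 1 in Oct4+. Every Oct4+ library lay below every library of the other groups. Since the Oct4+ reads were few, the ratio of summed counts is given with its counting interval: DP over Oct4+ was 26.2 (95% interval 9.85 to 98.6) and Pdgfra+ over Oct4+ was 31.4 (11.9 to 117). The edgeR adjusted p was 0.00129 for Afp in DP against Oct4+ and 0.000714 for Oct4+ against Pdgfra+.

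Apoa1, the core protein of high density lipoprotein, and Apom, a lipocalin that carries sphingosine-1-phosphate on it, passed the threshold in none of the 3 comparisons. Apoa1 was at 2.19, 2.88 and 3.23 CPM in Pdgfra+, at 3.98, 1.53 and 5.48 CPM in DP, and at 0.155, 2.66 and 0.442 CPM in Oct4+, where replicate 2 again stood apart. Without Oct4+ replicate 2, Apoa1 was past the threshold in both comparisons with Oct4+ (log2 fold change 3.64 and edgeR adjusted p = 0.00311 for DP against Oct4+, -3.24 and adjusted p = 0.00445 for Oct4+ against Pdgfra+). Apom was at 2.07, 2.88 and 2.19 CPM in Pdgfra+, at 2.11, 4.36 and 15.1 CPM in DP, and at 1.01, 0.885 and 5.53 CPM in Oct4+. The third library was the highest in both groups that carry the reporter. Without Oct4+ replicate 3, Apom was past the threshold in DP against Oct4+ (log2 fold change 2.91, adjusted p = 0.0135).

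Trf, which encodes the iron carrier transferrin, went the other way. It had no read in any of the 6 Pdgfra+ and DP libraries and 14, 3 and 19 reads in the Oct4+ libraries. Set against a floor of 3 reads over the group, Oct4+ was at least 10.4-fold higher than Pdgfra+ and at least 9.04-fold higher than DP, and Trf had no test with all 9 libraries because it failed the filter on low counts. Without that filter it was called in DP against Oct4+, as in some fits with 1 library left out.

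Against the background of all genes, DP exceeded Oct4+ in 6 of the 9 members tested, where 56.2% of all genes were called and 28.3% were called higher and 27.9% lower. Oct4+ differed from Pdgfra+ in 7 members, 6 lower and 1 higher, where 63.2% of genes were called, 31.5% lower and 31.8% higher. The further limit on the log2 fold change was passed by 27.7% of genes in DP against Oct4+ and by 32% in Oct4+ against Pdgfra+. The groups of libraries did not overlap for 2, 6 and 7 of the 9 members in DP against Pdgfra+, DP against Oct4+ and Oct4+ against Pdgfra+, as was the case for 34.2%, 62.6% and 69.3% of all genes. The median log2 fold changes of the members were 2.32 and -2.24 in the comparisons with Oct4+, which share the Oct4+ libraries, against -0.04 and 0.01 for all genes. Without Oct4+ replicate 2, where Trf passed the filter too, all members called before stayed called in both comparisons with Oct4+.

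**Figure D2:**
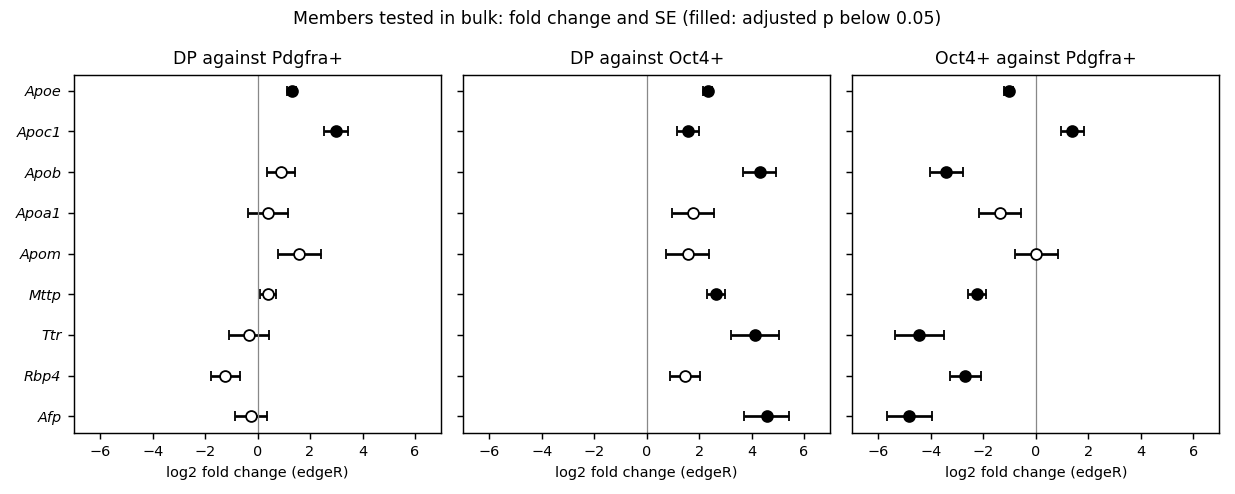
Log2 fold change of the 9 tested genes in the 3 bulk comparisons with its SE from edgeR, filled where the adjusted p is below 0.05. Apoe and Apoc1 are filled in all 3 panels, and the other filled members lie on the side away from Oct4+.

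Across the 9 libraries, the genes whose log2 level ran most like a member's, searched over 9594 genes, were Rassf8 and Gusb for Apoe (Pearson r 0.99 and 0.989), Fbp2 and Serpina3m for Apoc1 (0.995 and 0.975), and Acsl5, an acyl-CoA synthetase, for Apob (0.988). They were Sel1l3 for Ttr (0.991), Ampd2 for Rbp4 (0.987), Plp2 for Afp (0.987), Fkbp2 for Mttp (0.988), Adgrl2 for Apoa1 (0.965), Rpp21 for Apom (0.957) and Zmiz1 for Trf (0.977). Among the members, Ttr ran with Apoa1 (r = 0.909), Afp (0.901), Mttp (0.882) and Apob (0.882), and against Trf (-0.97). Apoc1 was near 0 with Ttr (-0.08) and Apob (0.11) and ran most with Apom (0.653). All of these values come from 9 libraries in 3 groups and describe the group order.

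Of 13 related apolipoprotein genes outside the list, 5 passed the filter on low counts. Apoa4, Apoc2 and Alb are named here after their values were seen. Apoa4 was at 2.04 ± 0.0792, 5.57 ± 1.06 and 0.117 ± 0.104 CPM in Pdgfra+, DP and Oct4+ cells (mean ± SD, n = 3) and was lower in Oct4+ than in both others (edgeR log2 fold change 5.35 for DP against Oct4+, adjusted p = 3.97e-05). Its 3 DP libraries lay above the 3 Pdgfra+ libraries, at an edgeR adjusted p of 0.0635. Clu (clusterin), an abundant member of that list, was at 1150 ± 728, 697 ± 638 and 24.7 ± 26.6 CPM, lower in Oct4+ than in Pdgfra+ (log2 fold change -5.54, adjusted p = 0.00114). Apoc2 had no read in any library. Of 20 further plasma proteins of liver and yolk sac, 8 passed the filter. Alb, the gene of adult albumin, did not pass it (0.0347 ± 0.0602 CPM in Pdgfra+), and Gc, the vitamin D carrier, was at 11.7 ± 6.62, 13.3 ± 4.58 and 0.501 ± 0.513 CPM.

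Of 18 tested genes that assemble and lipidate lipoproteins, none was called in DP against Pdgfra+ by edgeR, where 6.87% of all genes were. In DP against Oct4+, 13 were higher and 2 lower, where 28.3% and 27.9% of all genes were. In Oct4+ against Pdgfra+, 12 were lower and none higher, where 31.5% and 31.8% of all genes were. The cholesterol acyltransferase Soat2 was at 40.3 CPM in DP and 4.29 CPM in Oct4+ (edgeR log2 fold change 3.22, SE 0.36, adjusted p = 5.84e-05), and Soat1 was at 354 and 54.3 CPM (2.70, SE 0.19, adjusted p = 5.76e-06). P4hb, the disulfide isomerase that forms the partner subunit of Mttp, was at 2408 and 534 CPM (2.17, SE 0.14, adjusted p = 3.42e-06). The medians were 1.26 and -1.14 on the log2 scale in these comparisons.

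Of 18 receptors and endocytic genes for lipoproteins tested, 4 were higher and 2 lower in DP against Pdgfra+, where 4.61% and 2.26% of all genes were. In DP against Oct4+, 14 were higher and 4 lower, where 28.3% and 27.9% of all genes were. In Oct4+ against Pdgfra+, 3 were higher and 14 lower, where 31.8% and 31.5% of all genes were. Amn and Cubn, which form the receptor that takes up many of the carrier proteins, were at 661 and 2351 CPM in DP against 163 and 627 CPM in Pdgfra+ (log2 fold changes 2.02 and 1.91, SE 0.43 and 0.49, edgeR adjusted p = 0.0288 and 0.0463). Neither was called without DP replicate 3 or without Pdgfra+ replicate 3, fits in which no gene of the related lists was. Lpl, lipoprotein lipase, was higher in Oct4+ than in Pdgfra+ (46.5 against 0.464 CPM, log2 fold change 6.60, adjusted p = 6.18e-06).

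In the list of retinol, thyroid hormone and iron genes, 16 were tested. In DP against Pdgfra+, 1 was higher and 1 lower, where 4.61% and 2.26% of all genes were. In Oct4+ against Pdgfra+, 6 were higher and 7 lower, where 31.8% and 31.5% of all genes were. Stra6, the receptor for Rbp4, was at 141 CPM in Pdgfra+, 102 in DP and 4.59 in Oct4+ (log2 fold change -4.94 for Oct4+ against Pdgfra+, edgeR adjusted p = 9.55e-06). Tfrc, the receptor for transferrin, was lower in DP than in Pdgfra+ (28.9 against 73.9 CPM, -1.35, adjusted p = 0.025). Steap3, a ferrireductase for iron taken up with transferrin, was at 76.3 CPM in Oct4+ and 0.353 CPM in Pdgfra+ (7.68, adjusted p = 0.000149), on the same side as Trf, though with an SD of 90.4 CPM in Oct4+.

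Of 20 tested transcription factors that are known to act on such genes in endoderm, 1 was lower and none higher in DP against Pdgfra+. Of all genes, 2.26% were lower and 4.61% higher there. In Oct4+ against Pdgfra+, 12 of these factors were lower and 4 higher, where 31.5% and 31.8% of all genes were. Foxa2 was at 121 CPM in Pdgfra+ and 2.04 CPM in Oct4+ (edgeR log2 fold change -5.89, adjusted p = 1.77e-05), Gata4 at 674 and 10.2 CPM (-6.04, adjusted p = 4.56e-06), and Hnf4a at 89.6 and 3.61 CPM (-4.65, adjusted p = 3.56e-06). Nr5a2, a nuclear receptor, was higher in Oct4+ (38.5 against 0.270 CPM, 7.02, adjusted p = 2.17e-05). Of 12 tested visceral endoderm markers, Amn and Cubn were called higher in DP than in Pdgfra+, and the summed level of the list was 4114 to 7138 CPM in DP, 2188 to 2583 CPM in Pdgfra+ and 294 to 461 CPM in Oct4+. None of 13 parietal endoderm markers passed in DP against Pdgfra+, with sums of 36930 to 63550 CPM and 59710 to 79540 CPM. Over all related lists, DP and Pdgfra+ differed in 9 of 104 genes, where 6.87% of all genes were called. With the replicate block over all 9 libraries they differed in 10 of 104, where 1166 of 14185 genes were called, and with the block over the 6 libraries compared in 38 of 97, where 2536 of 12541 genes were.

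The single-cell libraries separated the members by cell type. Of the deposited barcodes, 6896 in -4OHT and 7283 in +4OHT, 5151 and 6298 were kept and clustered together without the members or related genes among the features, and 21 barcode sequences occurred in both libraries. Endoderm-like clusters (10 of 14 detected endoderm markers at 50% or more of their highest cluster level in each) held 1325 cells (25.7%) in -4OHT and 6059 (96.2%) in +4OHT. Epiblast-like clusters held 3650 cells (70.9%) in -4OHT and none in +4OHT. The endoderm-like clusters were led by Pitx1, S100g and Cited1 (cluster 1, 148 cells in -4OHT and 1888 in +4OHT), by Pitx1 and Car4 (cluster 2, 423 and 2225), by Cubn and Amn (cluster 3, 697 and 27) and by Gkn2, Gkn1 and Tff1 (cluster 4, 57 and 1919). With 1 library per condition there was no test, and intervals cover counting error only.

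Ttr was present in all endoderm-like clusters with at least 50 cells and close to absent from epiblast-like cells. It was at 34.6 (95% interval 31.5 to 38.1), 38.5, 54.5 and 66.9 CPM of UMIs in clusters 3, 2, 1 and 4 of the -4OHT library and at 33.9, 46.3 and 41.1 CPM in clusters 2, 1 and 4 of the +4OHT library. In the epiblast-like cells it was at 0.234 CPM (0.137 to 0.375). With every cell thinned to 5000 UMIs, 12.3% of endoderm-like cells without 4OHT and 13.9% with 4OHT had a Ttr UMI (20.3% and 26.5% unthinned), against 0.111% of epiblast-like cells (0.466% unthinned). The thinning left out 46, 105 and 33 shallower cells.

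Rbp4 split the endoderm-like clusters. It was highest in the Gkn2 and Tff1 cluster, at 136 (131.6 to 141) CPM with 4OHT and 214 (179 to 255) CPM without, and it was at 63.1 and 62.2 CPM in clusters 2 and 1 with 4OHT. In the Cubn and Amn cluster it was at 2.07 (1.35 to 3.03) CPM, at the level of the epiblast-like cells (3.20, interval 2.80 to 3.64). After thinning, 31.9% of cluster 4 cells with 4OHT and 0.302% of cluster 3 cells without it had an Rbp4 UMI (44.9% and 2.44% unthinned). Ttr and Rbp4, whose proteins form a complex in plasma, were thus both found in clusters 1, 2 and 4, while cluster 3 had Ttr and, at this depth, no Rbp4 above the epiblast-like level. In cluster 3 the 138 Ttr UMIs of the thinned cells came from 53 of 662 cells, with up to 12 in a cell.

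Within clusters, Rbp4 was found more often in cells with Ttr. In the thinned cells of cluster 4 with 4OHT, 40.5% of cells with a Ttr UMI and 30.3% of those without had an Rbp4 UMI, and in cluster 2 these shares were 26.3% and 16.7%, which is a description of cells from 1 library. The cells with most UMIs of a gene, 10% of the cells in the +4OHT endoderm-like class, held 72.1% of the Rbp4 UMIs and 81.7% of the Ttr UMIs. The variance of counts over cells was 3.62 and 2.11 times the mean, whereas for Mttp it was 1.02 times the mean.

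Apoe and Apoc1 had the opposite pattern. Apoe was at 354 (343 to 364) CPM in the Cubn and Amn cluster and at 420 and 316 CPM in the epiblast-like clusters 5 and 7, but at 71.2, 51.3 and 131 CPM in endoderm-like clusters 2, 1 and 4 of the same library, and at 30.7, 46.7 and 32.6 CPM in those clusters with 4OHT. Apoc1 was at 44.6 (41.0 to 48.4) CPM in the Cubn and Amn cluster, at 40.1 and 37.9 CPM in the epiblast-like clusters, and between 0.617 and 6.69 CPM in clusters 1, 2 and 4 of either library. In the library with 4OHT, 170 of the 269 Apoc1 UMIs came from the 203 cells of trophectoderm-like cluster 8, at 44.0 CPM (37.6 to 51.1).

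The epiblast marker sum was 3516 CPM in the Cubn and Amn cluster, 7246 CPM in the epiblast-like class and 845 to 1206 CPM in clusters 1, 2 and 4 without 4OHT. Dppa5a made up 3114 CPM of it, while Nanog and Sox2 were at 6.68 and 12.2 CPM there, against 198 and 355 CPM in cluster 7. Pou5f1 was at 20.03 CPM in the Cubn and Amn cluster. In the 553 cells of the Cubn and Amn cluster without a UMI of Nanog, Sox2 or Fgf4, Apoe was at 356 CPM and Apoc1 at 43.0 CPM, and in the other 144 cells they were at 347 and 48.9 CPM. The epiblast marker sum was alike in the 2 sets of cells, at 3485 and 3606 CPM, and their median depth was 16904 and 21628 UMIs. This split of the cluster was made after its values were seen. The part of RNA from epiblast-like cells in the Apoe and Apoc1 values was not tested.

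**Figure D3:**
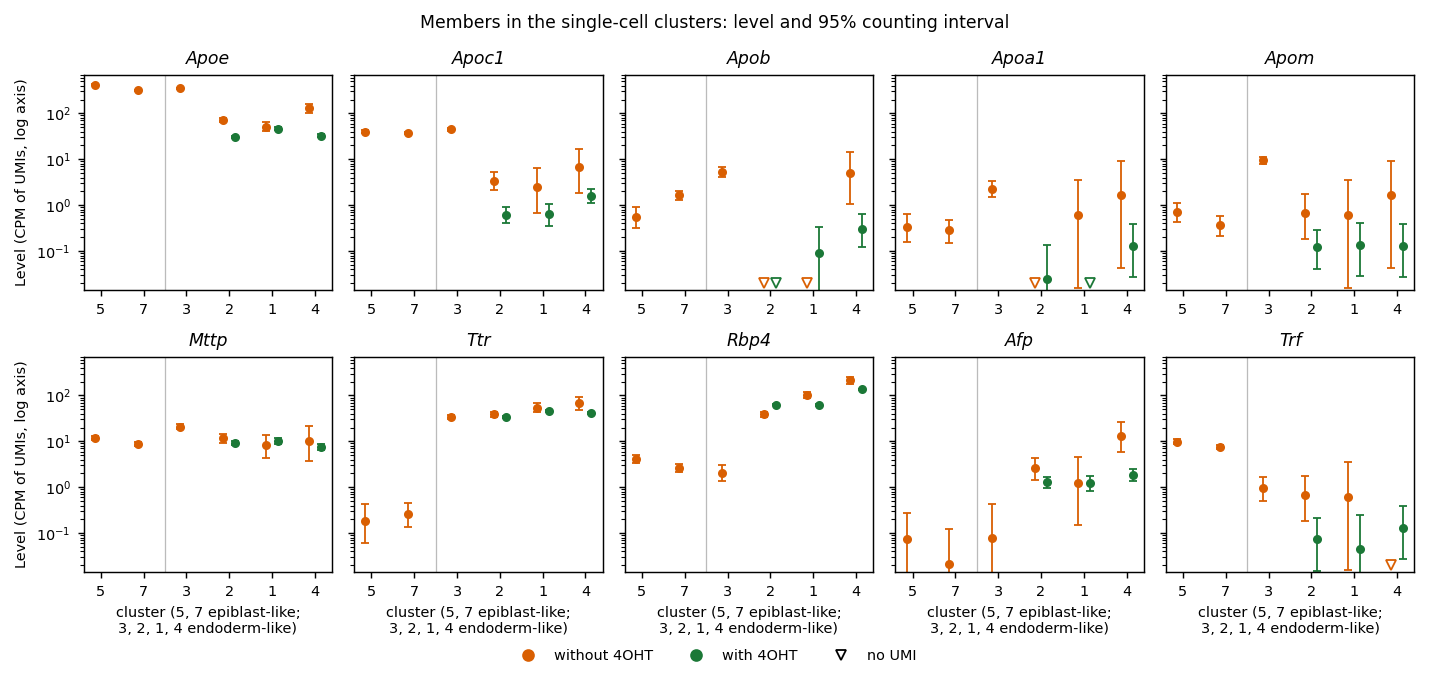
Level of each of the 10 genes in CPM of summed UMIs (log axis) in the single-cell clusters with at least 50 cells of a library, with 95% Poisson counting intervals, for -4OHT (orange) and +4OHT (green) and triangles for no UMI. Apoe, Apoc1 and Trf are high in the epiblast-like clusters 5 and 7, Ttr lies between 33.9 and 66.9 CPM in the endoderm-like clusters, and Rbp4 is low in cluster 3.

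Among the low members, Apom, Mttp, Apob and Apoa1 had their highest level in the Cubn and Amn cluster of the -4OHT library as well, among clusters with at least 50 cells. For all 4 genes the interval overlapped with that of cluster 4 of the same library, whose 57 cells had 1 to 6 UMIs of each. Apom was at 9.54 (7.91 to 11.4) CPM there, at 0.496 CPM in epiblast-like cells and at or below 1.67 CPM in the other endoderm-like clusters. Mttp was at 20.7 (18.3 to 23.4) CPM there, at 15.6 (10.8 to 21.8) CPM in the two-cell-like cluster 6, which overlaps, and between 7.59 and 11.8 CPM in clusters 1, 2, 4, 5 and 7. After thinning, 9.22% of cells of that cluster and 4.95% of the epiblast-like cells had an Mttp UMI (27.4% and 17.2% unthinned).

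Apob was at 5.33 CPM and Apoa1 at 2.31 CPM in the Cubn and Amn cluster, but most of these UMIs came from few cells. Of its 697 cells, 11 had an Apob UMI and 6 had an Apoa1 UMI, for 67 and 29 UMIs. The 3 cells of the library with at least 2 Apoa1 UMIs were all in this cluster, and together they held 26 Apoa1, 21 Apob, 50 Ttr, 83 Apoe and 6 Apom UMIs and no Afp or Rbp4 UMI. Of the 15 cells with at least 2 Apob UMIs, 7 were in this cluster, 6 in the epiblast-like cluster 7 and 1 each in clusters 4 and 6, with up to 24 UMIs in a cell. These cells were picked after their values were seen and are given as a description.

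Afp was on the other side. It had 1 UMI in the 697 cells of the Cubn and Amn cluster (0.0795 CPM) and 3 UMIs in the 3650 epiblast-like cells, and it was at 1.23 to 1.89 CPM in clusters 1, 2 and 4 with 4OHT and at 13.4 (5.78 to 26.4) CPM in the 57 cells of cluster 4 without it. Trf, like Apoe and Apoc1, was found at equal depth in a larger share of epiblast-like than of endoderm-like cells of the same library, with intervals that did not overlap. It was at 8.46 (7.81 to 9.16) CPM in epiblast-like cells and 0.826 (0.481 to 1.32) CPM in endoderm-like cells, and 4.20% and 0.547% of thinned cells had a UMI. At equal depth without 4OHT, Apom, Ttr, Afp, Rbp4 and Mttp were found in a larger share of endoderm-like than of epiblast-like cells, with intervals that did not overlap, although for Mttp they overlapped at 3000 UMIs and without thinning. Apob was in 0.547% of endoderm-like and 0.581% of epiblast-like cells at 5000 UMIs, and in 0.906% and 2.30% without thinning.

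Between the conditions, the endoderm-like class as a whole had less Apoe and Apoc1 and more Rbp4 with 4OHT, and a like level of Ttr. Apoe was at 244 CPM without and 35.4 CPM with 4OHT (ratio 0.145, 95% counting interval 0.139 to 0.152), Apoc1 at 28.6 and 0.890 CPM (0.0311, 0.0242 to 0.0396), and Rbp4 at 26.2 and 82.3 CPM (3.14, 2.88 to 3.43). Ttr was at 38.2 and 38.9 CPM (ratio 1.02, 0.942 to 1.10). Of the 4 members with at least 20 CPM in a library, 3 were past 1.5-fold, where 30% of 6799 genes were, 21.3% higher and 8.65% lower. Most endoderm-like cells without 4OHT were in cluster 3, which had 27 cells with 4OHT. Cell type markers moved with this comparison: all 6 visceral endoderm markers with at least 20 CPM were lower with 4OHT (median log2 ratio -2.19), and 10 of 13 parietal endoderm markers were higher and none lower (0.779), against a median of 0.14 over all genes. In clusters 1, 2 and 4 these were 3 of 4 lower and 3 of 13 higher, where 2.25% of all genes were lower and 7.55% higher. Their part in the member values was not tested.

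In clusters 1, 2 and 4 alone, which held at least 50 cells of each library, the members differed less. Apoe was at 71.7 CPM without and 35.3 CPM with 4OHT (ratio 0.493, 0.451 to 0.540), Rbp4 at 64.2 and 82.5 CPM (1.29, 1.18 to 1.41), Ttr at 43.8 and 39.0 CPM (0.890, 0.797 to 0.996) and Mttp at 10.9 and 8.98 CPM (0.827, 0.662 to 1.04). Of 3 members with at least 20 CPM Apoe alone was past 1.5-fold, where 9.8% of 6653 genes were, 7.55% higher and 2.25% lower. Apoc1, at 3.50 and 0.891 CPM (ratio 0.255, 0.163 to 0.409), was under 20 CPM there. In these clusters Pou5f1 was at 3.50 CPM without and 1.74 CPM with 4OHT, a ratio of 0.496 (0.330 to 0.772), and the part of RNA from the epiblast-like cells of the -4OHT library in the Apoe and Apoc1 values was not tested. The ratios differed between clusters: Apoe had a ratio of 0.909 (0.725 to 1.15) in cluster 1, 0.431 (0.386 to 0.483) in cluster 2 and 0.250 (0.198 to 0.320) in cluster 4, while Rbp4 had ratios of 0.613, 1.64 and 0.637.

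Over whole libraries, which mix cell types in different shares, Apoe was at 334 CPM without and 38.3 CPM with it, Apoc1 at 36.5 and 2.82, and Trf at 6.67 and 0.210 CPM. Apob was at 1.73 and 0.115, Apom at 1.95 and 0.126, and Apoa1 at 0.530 and 0.0524 CPM. Ttr was at 9.49 and 37.9, Rbp4 at 8.58 and 79.8, Afp at 0.316 and 1.34, and Mttp at 11.8 and 8.96 CPM.

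**Figure D4:**
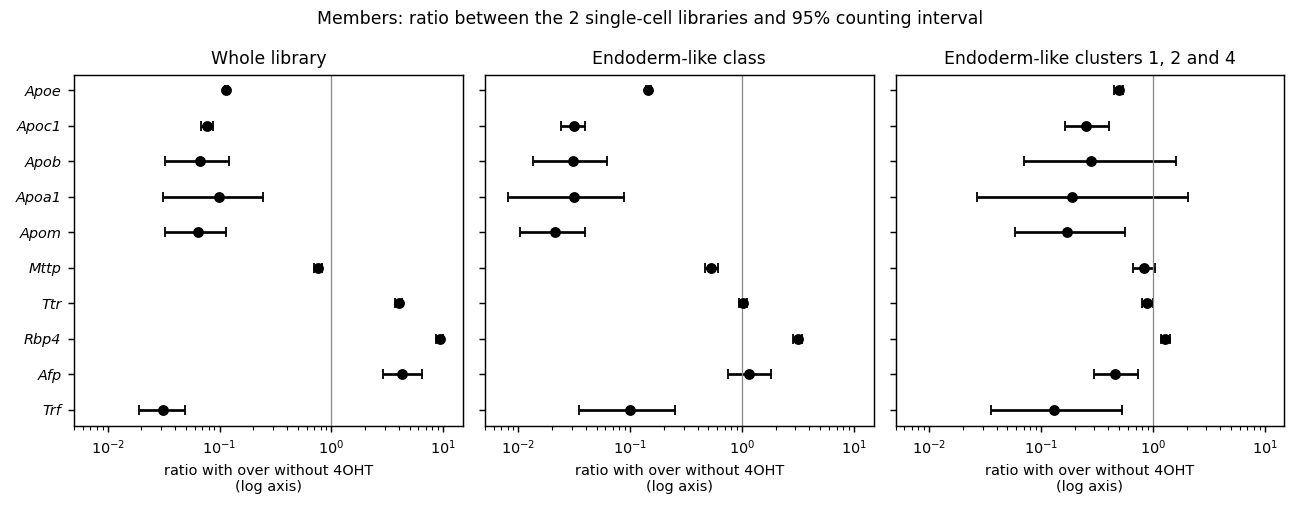
Ratio of the level of each gene in the +4OHT library over the -4OHT library (log axis), with 95% counting intervals, in the whole libraries, in the endoderm-like class and in its clusters 1, 2 and 4. Ttr sits above 1 in the whole library and at 1.02 in the class, and Apoe moves from 0.145 in the class to 0.493 in clusters 1, 2 and 4.

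Of 10 lipoprotein receptor and endocytic genes with at least 20 CPM, 5 were lower with 4OHT, among them Cubn (456 to 16.7 CPM) and Amn (319 to 3.95 CPM), and 2 were higher, where 8.65% of all genes were lower and 21.3% higher. In clusters 1, 2 and 4, 1 of 9, Cubn, was lower, as were 2.25% of all genes. Of 9 assembly genes none was past 1.5-fold in either set. Igfbp1, a secreted binding protein, had 302 UMIs in the class without 4OHT and none with it, and Clu was at 185 and 176 CPM in clusters 1, 2 and 4. Of 10 transcription factors in the class, 5 were higher with 4OHT, among them Foxa2 (72.5 and 167 CPM) and Sox17 (199 and 482 CPM). Sox7 (38.7 and 15.2 CPM) was lower, where 21.3% of all genes were higher and 8.65% lower. In clusters 1, 2 and 4, 1 of 10, Sox17, was higher and 1, Sox7, was lower. Of all genes, 7.55% were higher and 2.25% lower in those clusters.

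Apoe took a different place in the bulk and single-cell data. In the sorted reporter line it was lowest in Oct4+ cells, whereas in the loss-of-function line the epiblast-like cells had as much as the Cubn and Amn cluster and more than the other endoderm-like clusters. For Ttr and Afp, levels in the PDGFRA-positive cells and in the endoderm-like class were above those in the Oct4+ and epiblast-like cells in both data sets, and Trf was on the Oct4+ and epiblast-like side in both. The lines, the library chemistry and the sorting differ between the data sets, and these cannot be told apart.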

How the data were processed

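Bulk RNA-seq libraries (stranded, single-end) covered 3 sorted populations with 3 libraries each, and droplet libraries covered 2 conditions with 1 library each. For the bulk libraries the authors deposited a table of unnormalised read counts by gene (mm10 per the labels). Its aligner, counter, annotation and handling of strand were not given in the sources used here. For the droplet libraries they deposited UMI counts per gene and barcode made with Cell Ranger 6.1.2 per the file headers. The 35 lines of the bulk table without a gene name were left out.

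Bulk counts were filtered with filterByExpr, normalised by TMM and fitted with edgeR 4.0.16 (R 4.3.3, quasi-likelihood, all 9 libraries, group as the only term, Benjamini-Hochberg over 14185 genes, two-sided), with a call at an adjusted p below 0.05. DESeq2 1.42.0, other filters and normalisations, replicate blocks and the removal of each library were alternatives. The edgeR step was tested on simulated data. The main fit used no pairs. The replicate blocks paired libraries with the same number in the labels, those of Oct4+ included where they were in the fit. For DP and Pdgfra+ the deviations of these libraries from their group means correlated at 0.271, 0.477 and 0.321.

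Cells with at least 1000 genes and under 10% mitochondrial UMIs were kept. Scrublet in scanpy 1.11.5 removed 173 cells (3.25%) of the -4OHT library and 1 of the +4OHT library, where the caller did not work, so doublets remained there. Leiden clusters (resolution 0.5) were named from markers, and UMIs were summed per cluster. Intervals are exact 95% Poisson or binomial intervals and cover counting error only.

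The members, gene lists and markers were chosen with earlier results of these data known. Genes outside the members were named where they were past the threshold, at 10 CPM or more in the higher group and among the 3 largest changes of a list in a direction, or among the 3 most correlated with a member. Exceptions are named as such. Some genes of the related lists that this rule names are not reported here.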

Additional observations from a re-analysis of the deposited data

How the results depend on the processing

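Over all alternatives, 405 of 421 log2 fold changes of members kept their side of the threshold, 12 passed it only under an alternative and 4 lost it. None that was past the threshold in either fit changed direction. Changes of direction among values that passed in neither fit were not counted. In DP against Pdgfra+, 2 members were called, and leaving out 1 library gave 1 to 2, with Apoc1 lost without Pdgfra+ replicate 3. For the related lists in that comparison, the count of 9 became 16 with DESeq2, 24 when every gene with a read was tested and 38 with the replicate block over the 6 libraries compared, and leaving out 1 library gave 0 to 16, with 0 without DP replicate 3 or Pdgfra+ replicate 3, 1 without DP replicate 2 or Pdgfra+ replicate 2, 3 without Pdgfra+ replicate 1 and 16 without DP replicate 1. Over all genes, 974 were called in DP against Pdgfra+, 1872 with DESeq2, 1892 without the filter, 2536 with the replicate block over 6 libraries and 1166 with it over 9, and 61 to 1382 with 1 library left out. In DP against Oct4+, 6 members were called, 10 without the filter and 6 to 8 with 1 library left out. In Oct4+ against Pdgfra+ 7 were called, and 6 to 9 with 1 library left out. In the main fit 56.2% and 63.2% of all genes were called in these comparisons. The shares in the other fits are not given here, so these counts describe the fits and not the members. With the replicate block, Rbp4 passed the threshold in DP against Pdgfra+ over the 6 libraries, and Apom in DP against Oct4+ over 9 libraries (log2 fold change 1.55, edgeR adjusted p = 0.048). In the comparisons with Oct4+ the numbers did not pair the libraries (correlations -0.0728 to 0.152). Of the single-cell members, 3 were past 1.5-fold in the endoderm-like class and 1, Apoe, in its clusters with at least 50 cells in each library, an alternative chosen after seeing the data. Leaving out the 5% of cells with the highest doublet scores, also added later, gave 3. The cause of these changes was not tested. The 1 to 2 reads per library for Afp in Oct4+ cells, and 1 single-cell library per condition, limit what can be told.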

Other observations

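When all deposited barcodes were clustered without a filter on cells, 1 cluster of 198 barcodes, 131 of them without and 67 with 4OHT, was led by Ttr. Its median UMI count was 1760 without and 1441 with 4OHT, and only 3 of 14 endoderm markers reached 50% of their highest cluster level in it, so it was left unnamed. It was noticed after the values were seen.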
